A study of Mus musculus with 2 samples.

Results

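Klf2, Klf4, Nos3, Piezo1, Edn1, Ednrb, Calcrl, Ramp2, Ramp3 and Adm, 10 of the 28692 genes counted in single cells of the mouse mesentery, were chosen by gene symbol as factors of the endothelial response to blood flow and as the vasoactive peptides and receptors that act on vessels. Their levels were followed through arterial, capillary, venous and lymphatic endothelial cells (AECs, VECs and LECs) and through the blood cells that came with them, in 1 control library and 1 Flcn iΔEC library. Flcn encodes folliculin, a tumour suppressor that acts in nutrient and lysosomal signalling. In Flcn iΔEC mice, Flcn flox/flox alleles were recombined by CreERT2 driven from the Cdh5 promoter, which is active in endothelium. The labels give C57BL/6 mice at P8 and 4 subcutaneous doses of 40 ug 4-hydroxytamoxifen, given on postnatal days 2, 3.5, 5 and 6.5, for both groups, and do not give the genotype of the control. CD31+ cells were pulled from the mesentery with magnetic beads, and each library pooled the cells of 3 mice. With 1 library per genotype no test between genotypes was possible, so every ratio below describes these 2 libraries. Levels are UMIs of the gene per 1000000 UMIs (CPM) summed over the cells of a type, and 95% intervals are exact Poisson intervals that cover counting error only, not the spread between mice.

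Laminar flow over endothelium raises the zinc-finger factors KLF2 and KLF4 through the ERK5 kinase and MEF2 factors, and these in turn sustain NOS3, the endothelial enzyme that makes the vasodilator nitric oxide. PIEZO1 is a cation channel opened by membrane tension. Endothelin-1 (Edn1) is a vasoconstrictor that endothelial cells release and can sense through the B-type receptor EDNRB. Adrenomedullin (Adm) is a vasodilator needed for lymphatic growth, and its receptor CALCRL binds it only when paired with RAMP2 or RAMP3.

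By the GRCm38 annotation, Klf2 lies on chr8:72319033-72321656 (plus strand), Klf4 on chr4:55527143-55532466 (minus), Nos3 on chr5:24364810-24384474 (plus), Piezo1 on chr8:122481698-122551329 (minus) and Edn1 on chr13:42301476-42307990 (plus). Ednrb lies on chr14:103814625-103844402 (minus), Calcrl on chr2:84330626-84425411 (minus), Ramp2 on chr11:101246028-101259546 (plus), Ramp3 on chr11:6658521-6677475 (plus) and Adm on chr7:110627661-110629820 (plus). All are protein-coding. Ramp2 overlaps Vps25 on its own strand, so the split of reads between them is uncertain, and Nos3, Piezo1 and Adm overlap counted genes on the opposite strand. The RefSeq promoter table (GRCm38.p6) held 8 of the 10 genes, without Nos3 and Ramp2. The promoters of Klf2 and Klf4 are shown because the levels of this pair are set against the MEF2 branch below and because they hold the MEF2 and E-box matches described after them. Each line gives 200 bases, from 250 to 51 bases upstream of the RefSeq start, 5′ to 3′ on the strand of the gene, for Klf2 chr8:72318812-72319011 and for Klf4 chr4:55532526-55532725. Capitals mark the motif match.
Klf2: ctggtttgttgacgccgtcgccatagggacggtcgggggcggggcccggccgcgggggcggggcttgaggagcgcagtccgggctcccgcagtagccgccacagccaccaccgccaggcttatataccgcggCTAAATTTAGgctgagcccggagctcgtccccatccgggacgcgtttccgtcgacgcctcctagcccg
Klf4: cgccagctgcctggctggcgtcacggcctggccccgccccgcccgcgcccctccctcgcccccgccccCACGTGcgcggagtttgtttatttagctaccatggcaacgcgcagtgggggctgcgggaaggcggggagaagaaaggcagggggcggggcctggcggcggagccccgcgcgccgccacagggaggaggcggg
The capitals in Klf2 match the MEF2 motif CTANNNNTAG, 118 to 109 bases upstream of the start, a motif found in the 250 upstream bases of 3.20% of 32851 promoters on either strand. Those in Klf4 match the E-box CACGTG, the core of the sites bound by TFE3 and TFEB, 182 to 177 bases upstream and found in 6.02% of promoters. The CACCC box CCACCC, a KLF motif present in 28.1% of promoters, occurred once in Klf2 at 19 to 14 bases and in Ramp3 at 201 to 196 and 73 to 68 bases upstream. None of these motifs overlapped another, and a match is a description of the letters only.

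The libraries held 6814 control and 4459 Flcn iΔEC cells, with medians of 7283 and 8587 UMIs per cell. At least 2 UMIs of Cdh5, the endothelial cadherin, were found in 566 and 892 cells, and cells with 0 Cdh5 UMIs (6084 and 3430) were taken as non-endothelial. Of the Cdh5-positive cells, 155 control and 167 Flcn iΔEC cells also carried blood cell markers and were set aside, which left 411 and 725 cells. These were named by the highest of arterial, capillary, venous and lymphatic marker scores and split on Cxcl12, Prox1 and Lyve1. The control and Flcn iΔEC libraries gave 57 and 117 Cxcl12-low AEC-like, 65 and 23 Cxcl12-high AEC-like, 105 and 44 capillary-like, 98 and 151 Prox1-low VEC-like, 42 and 196 Lyve1-low LEC-like and 31 and 114 Lyve1-high LEC-like cells. Prox1-high VEC-like cells numbered 3 and 46, and 5 and 22 Madcam1+ LEC-like and 5 and 12 high endothelial venule-like cells enter only the totals. LEC-like cells named without Lyve1 pool the Lyve1-low and Lyve1-high types. The cut-offs were set after the data were seen. Cells near them numbered 9 and 10 for Cxcl12, 8 and 28 for Prox1 and 3 and 31 for Lyve1, and the 2 best scores were close in 66 and 64 cells. In the 6 types compared, the median cell held 2253 to 14519 CPM of its own marker list against 236 to 1236 CPM of the next list, and at most 41.8 CPM of a blood cell list. Cells were named on these same lists and set aside on blood cell markers, so these values describe the types and do not test the naming. Flcn UMIs do not check the deletion, because the libraries tag the 3′ end of transcripts and the labels do not give the floxed exons. They stood at 8.25 and 9.25 CPM in control and Flcn iΔEC endothelial cells. Xist gave 9 UMIs in control and 63462 in Flcn iΔEC cells, and 4 Y-linked genes gave 15535 and 17, so sex and genotype cannot be told apart. Heat shock genes (5 genes summed) ran from 258 to 480 CPM in the 6 control types and from 320 to 1199 CPM in the Flcn iΔEC types, and their part in the results was not tested. The libraries shared 6 cell barcodes.

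Among the 10 genes, Ednrb was higher in the Flcn iΔEC library in all 6 endothelial types, Klf2 was lower in AEC-like and Prox1-low VEC-like cells and higher in Lyve1-high LEC-like cells, and Nos3, Calcrl and Adm were lower in named types. Over all endothelial cells, whose make-up of types differed between the libraries, Ednrb was past 2-fold higher and Ramp3 and Adm lower among the 10 (3.82% and 6.44% of all genes). Past 2-fold, with 1 count added to each side and at least 50 counts over both libraries, Klf2 and Adm were lower in Cxcl12-low AEC-like cells (2 of 9 genes that passed the count minimum, against 3.2% of all genes), while none was higher (2.28% of all genes). In Cxcl12-high AEC-like cells, Ednrb was higher and Klf2 lower among 8 (2.37% and 4.77% of all genes). In Prox1-low VEC-like cells Ednrb was higher and Calcrl lower among 8 (2.89% and 4.44%). In Lyve1-low LEC-like cells Ednrb was higher and Nos3, Edn1 and Adm lower among 9 (4.65% and 8.17%), and in Lyve1-high LEC-like cells Ednrb and Edn1 were higher and none lower among 8 (2.95% and 5.83%). None of the 10 passed 2-fold in capillary-like cells (3.18% and 3.83%). Of these 12 pairs of gene and type past 2-fold, 4 were lost under at least 1 alternative way of naming or weighting cells, namely Klf2 and Ednrb in Cxcl12-high AEC-like, Adm in Cxcl12-low AEC-like and Edn1 in Lyve1-high LEC-like cells. Ramp3 fell under the count minimum in all types but capillary-like cells, and Adm in Cxcl12-high AEC-like, Prox1-low VEC-like and Lyve1-high LEC-like cells. The median log2 ratio of all 10 genes ran from -0.67 in Prox1-low VEC-like to 0.06 in Lyve1-high LEC-like cells, and that of all genes tested from -0.19 to -0.06 over the 6 types.

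**Figure D1:**
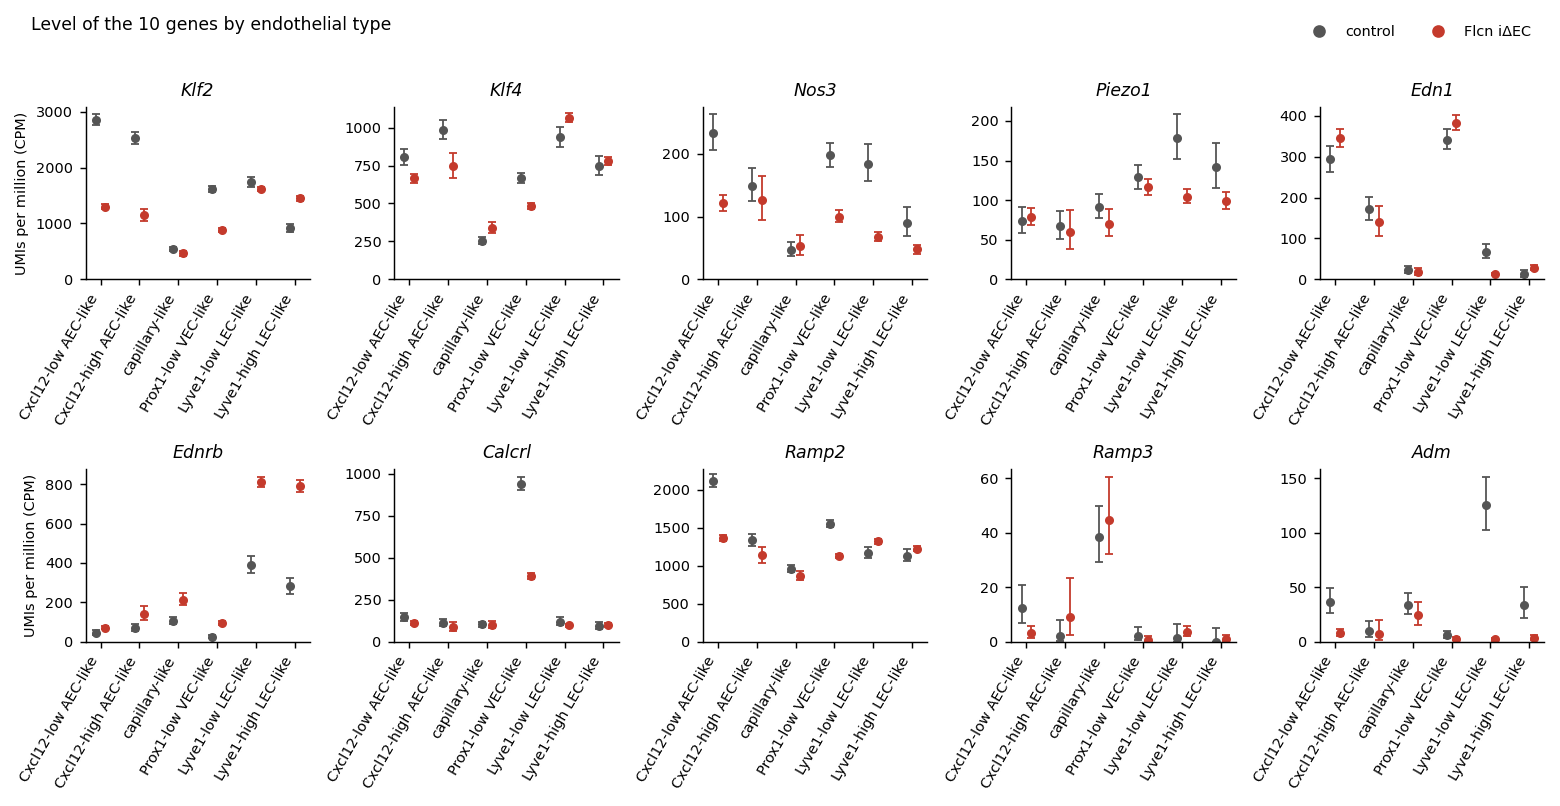
Level of each gene (CPM, linear axis from 0) in 6 endothelial types of the control (grey) and Flcn iΔEC (red) library, with exact Poisson 95% intervals. Control Klf2 stands highest in AEC-like cells, Calcrl in Prox1-low VEC-like cells, Ramp3 in capillary-like cells and Ednrb in LEC-like cells of both libraries.

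Klf2 was highest in control AEC-like cells. The Cxcl12-low type held 2858 CPM (2760 to 2958) in control against 1299 CPM (1258 to 1342) in Flcn iΔEC, a ratio of 0.455 (0.434 to 0.477). Cxcl12-high AEC-like cells held 2526 and 1148 CPM, also a ratio of 0.455 (0.412 to 0.501). Both AEC-like types were thus past 2-fold lower in Flcn iΔEC, but the Cxcl12-high type fell short of it with types from clusters (log2 -0.78), without the 5 cells with most Klf2 UMIs in each library (-0.98) and as the mean over cells (-0.91). Prox1-low VEC-like cells held 1617 CPM (1565 to 1671) in control against 884 CPM (857 to 913) in Flcn iΔEC, a ratio of 0.547 (0.522 to 0.572). The lymphatic types differed from each other. Lyve1-high LEC-like cells held 920 CPM (850 to 993) in control against 1450 CPM (1410 to 1490) in Flcn iΔEC, 1.58 times as much (1.45 to 1.71), and Lyve1-low LEC-like cells held 1747 and 1613 CPM, a ratio of 0.924 (0.874 to 0.976). The sign of that last ratio turned when types were taken from clusters (log2 0.18) and without the 5 cells with most Klf2 UMIs in each library (log2 0.16). Capillary-like cells held the least Klf2 in both libraries, 541 and 466 CPM. As a result the order of types differed between the libraries, from Cxcl12-low AEC-like, Cxcl12-high AEC-like, Lyve1-low LEC-like, Prox1-low VEC-like and Lyve1-high LEC-like to capillary-like in control, and with both LEC-like types first in Flcn iΔEC. Each neighbour in these orders differed beyond counting error.

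The Klf2 differences were spread over cells. The median Cxcl12-low AEC-like cell held 2265 CPM of Klf2 in control against 1127 CPM in Flcn iΔEC, the median Prox1-low VEC-like cell 1402 and 544 CPM, and the median Lyve1-high LEC-like cell 763 and 1375 CPM. With every cell thinned to 2000 UMIs, because Flcn iΔEC cells were deeper, a Klf2 UMI was found in 93.2% of control and 80.9% of Flcn iΔEC Cxcl12-low AEC-like cells, in 82.7% and 58.7% of Prox1-low VEC-like cells and in 72.7% and 87.4% of Lyve1-high LEC-like cells (unthinned 100% and 100%, 98.0% and 90.7%, 100% and 100%). Non-endothelial cells are no blank for Klf2, which lymphocytes express. Thinned Klf2 shares there were 77.9% and 78.2%, at median depths of 7062 and 7654 UMIs.

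Klf4, the closest relative of Klf2 in endothelium, differed less. It stood at 807 CPM (755 to 861) in control against 667 CPM (637 to 697) in Flcn iΔEC Cxcl12-low AEC-like cells, a ratio of 0.826 (0.763 to 0.895), at 985 and 744 CPM in Cxcl12-high AEC-like cells (0.755, 0.663 to 0.859) and at 666 and 484 CPM in Prox1-low VEC-like cells (0.727, 0.680 to 0.778). Klf4 was higher in the Flcn iΔEC library in capillary-like cells, with 255 and 340 CPM (1.33, 1.14 to 1.55), and in Lyve1-low LEC-like cells, with 938 and 1065 CPM (1.14, 1.05 to 1.22). In Lyve1-high LEC-like cells 748 and 779 CPM did not differ beyond counting error (1.04, 0.948 to 1.14). Klf4 and Klf2 therefore went the same way in the arterial and Prox1-low venous types. They went opposite ways in capillary-like cells, where the Klf2 ratio was 0.862 (0.765 to 0.969), and in Lyve1-low LEC-like cells. In both types the intervals of both genes left out 1. In Lyve1-low LEC-like cells, however, Klf2 turned to the side of Klf4 with types from clusters (log2 0.18). It did so too without the 5 cells with most Klf2 UMIs in each library (0.16). Across single cells of 1 type and library, which share a depth gradient, Spearman's rho of Klf2 with Klf4 ran from 0.260 to 0.756 over the 12 sets of cells.

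Both genes also respond to tissue dissociation, so a list of 12 immediate early genes was set beside them. Its summed level was 6152 CPM in control against 6346 CPM in Flcn iΔEC Cxcl12-low AEC-like cells, where Klf2 was lower in Flcn iΔEC. The list stood at 8074 and 4782 CPM in Cxcl12-high AEC-like cells, 6654 and 5415 CPM in Prox1-low VEC-like cells, 5916 and 3439 CPM in Lyve1-low LEC-like cells and 4323 and 3100 CPM in Lyve1-high LEC-like cells, where Klf2 was higher in Flcn iΔEC. In capillary-like cells, where Klf4 was higher in Flcn iΔEC, the list was higher as well, at 4710 and 6231 CPM. Spearman's rho of Klf4 with the list across cells ran from 0.303 to 0.824, and that of Klf2 from 0.152 to 0.661. The Cxcl12-high AEC-like cells of control also held 637 CPM of 6 mural genes summed (Acta2 243, Rgs5 173, Tagln 167, Notch3 27.1, Myh11 22.8 and Cspg4 4.34 CPM), against 85.0 CPM in Flcn iΔEC with Rgs5, Myh11 and Cspg4 at 0. The lymphatic marker list of the median Lyve1-high LEC-like cell was 14519 CPM in control against 8320 CPM in Flcn iΔEC. The part of these in the Klf2 and Klf4 ratios was not tested.

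**Figure D2:**
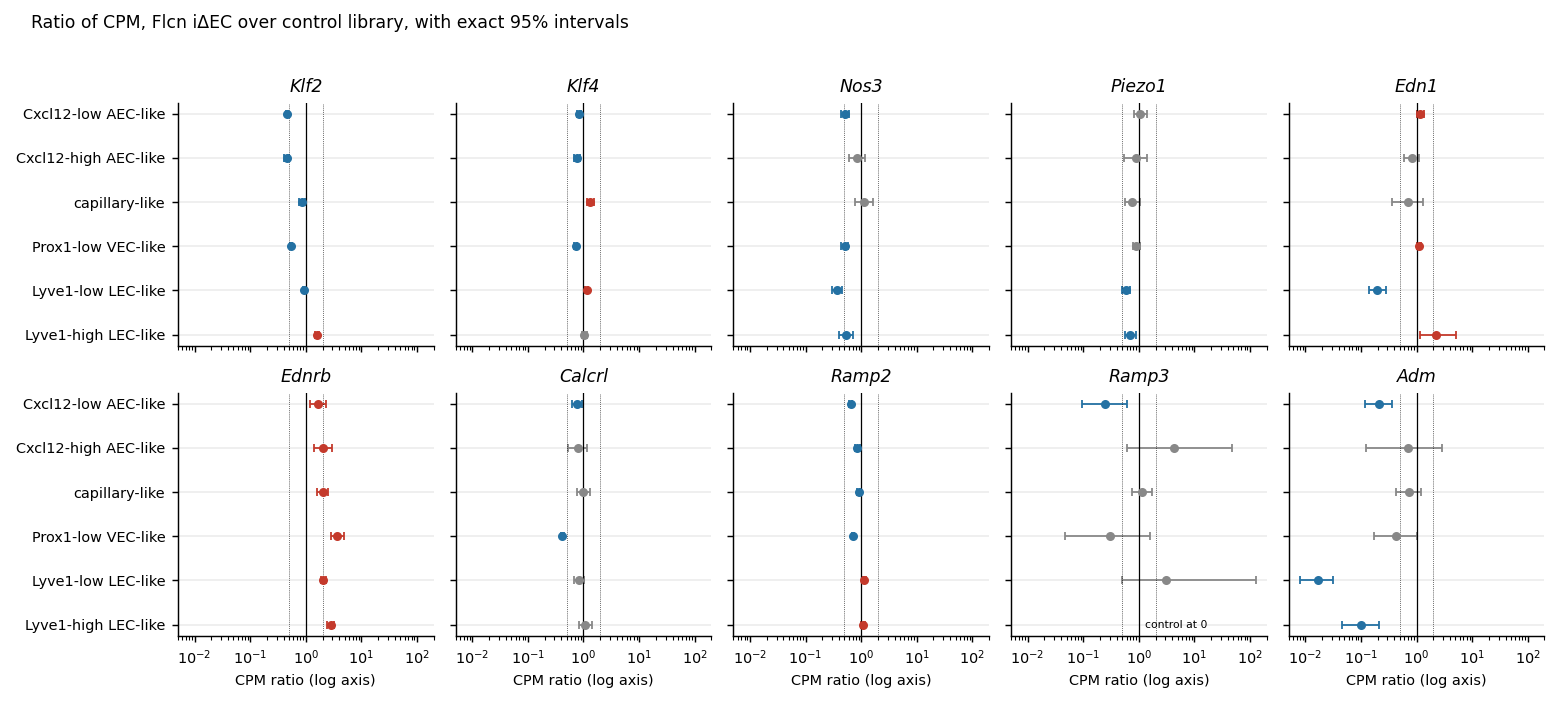
Ratio of CPM in the Flcn iΔEC over the control library for each gene and type, on a log axis with exact 95% intervals and dotted lines at 2-fold. Red points have intervals above 1, blue below 1, and grey points include 1; all 6 Ednrb points are red.

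Nos3 was close to restricted to endothelium, with 151 and 83.3 CPM in endothelial cells of the control and Flcn iΔEC libraries against 1.67 and 1.57 CPM in non-endothelial cells. In control it was highest in Cxcl12-low AEC-like cells, at 234 CPM (206 to 264), where Flcn iΔEC cells held 122 CPM (109 to 135), a ratio of 0.521 (0.443 to 0.613). Prox1-low VEC-like cells held 198 and 100 CPM (0.506, 0.443 to 0.579). Nos3 was lower in both LEC-like types as well, including the Lyve1-high type in which Klf2 was higher. Lyve1-low LEC-like cells held 185 CPM (157 to 216) in control against 67.8 CPM (60.9 to 75.2) in Flcn iΔEC, a ratio of 0.367 (0.304 to 0.446), and Lyve1-high LEC-like cells 89.8 and 48.0 CPM (0.534, 0.398 to 0.723). The summed level of 8 arterial markers was lower in these types too, at 932 CPM in control against 184 CPM in Flcn iΔEC Lyve1-low LEC-like cells (798 and 143 CPM in the median cell, with 2 and 1 of the 8 above 0) and 525 and 201 CPM in the Lyve1-high type, and its part in the Nos3 ratios was not tested. The interval included 1 in Cxcl12-high AEC-like cells (150 and 126 CPM, 0.844, 0.606 to 1.16) and capillary-like cells (47.2 and 53.3 CPM, 1.13, 0.769 to 1.64). A Nos3 UMI was found in 29.2% of control and 12.3% of Flcn iΔEC Lyve1-low LEC-like cells after thinning (81.0% and 77.0% unthinned), against 0.344% and 0.411% of non-endothelial cells (1.27% and 1.43% unthinned). Across single cells, rho of Nos3 with Klf2 ran from -0.12 to 0.40 over the 12 sets.

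Piezo1 differed between the libraries in LEC-like cells. Lyve1-low LEC-like cells held 179 CPM (152 to 209) in control against 105 CPM (96 to 114) in Flcn iΔEC, a ratio of 0.585 (0.488 to 0.704), and Lyve1-high LEC-like cells 142 and 99.6 CPM (0.702, 0.561 to 0.885). In the other 4 types its level lay between 59.7 and 129 CPM and each interval of the ratio included 1, as in Prox1-low VEC-like cells (129 and 117 CPM, 0.904, 0.781 to 1.05). Control LEC-like cells held 1.64 times (1.41 to 1.90) the Piezo1 of blood endothelial cells, and Flcn iΔEC LEC-like cells 1.07 times (0.969 to 1.17). Without the 5 cells with most Piezo1 UMIs in each library, the log2 ratio in Lyve1-high LEC-like cells was -0.13 in place of -0.52. Non-endothelial cells held 14.8 and 11.5 CPM, also lower in Flcn iΔEC (0.778, 0.684 to 0.883). This held in B cell-like (0.721, 0.600 to 0.863) and T cell-like cells (0.747, 0.568 to 0.973), so a Piezo1 difference was also present outside endothelium.

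**Figure D3:**
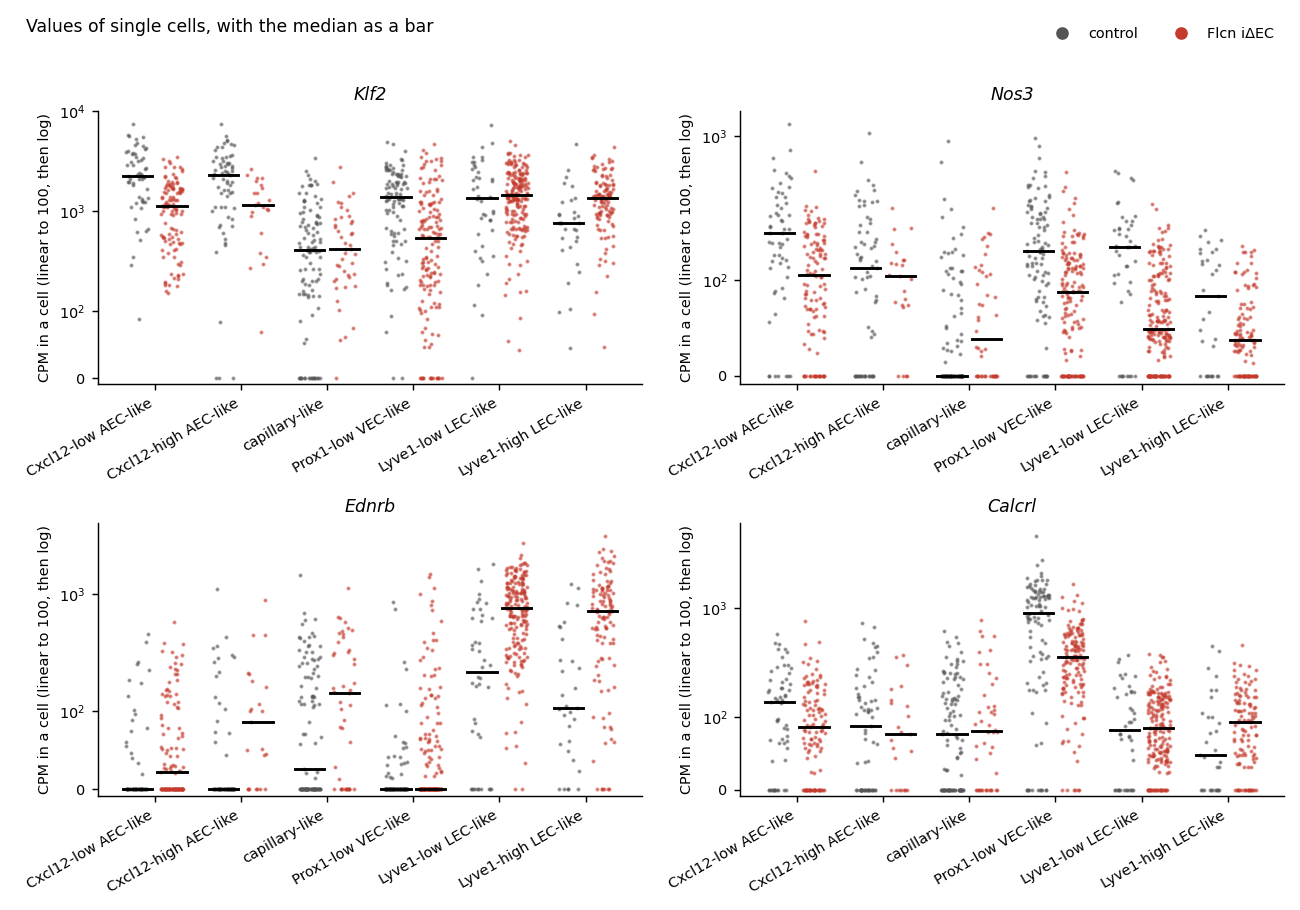
CPM of Klf2, Nos3, Ednrb and Calcrl in single cells of each type (points; axis linear to 100 and logarithmic above) for control (grey) and Flcn iΔEC (red), with the median cell as a black bar. The median Ednrb value of LEC-like cells lies higher in Flcn iΔEC, and the median Calcrl value of Prox1-low VEC-like cells lower.

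Edn1 was an arterial and venous transcript in both libraries. Prox1-low VEC-like cells held 341 CPM (318 to 367) in control against 383 CPM (365 to 402) in Flcn iΔEC, a ratio of 1.12 (1.03 to 1.22), and Cxcl12-low AEC-like cells 293 and 345 CPM (1.18, 1.04 to 1.34). Cxcl12-high AEC-like cells held 171 and 140 CPM and capillary-like cells 23.9 and 17 CPM, with intervals of the ratio that included 1. LEC-like cells held little Edn1, 0.192 (0.148 to 0.246) of the blood endothelial level in control and 0.0618 (0.0527 to 0.0721) in Flcn iΔEC. Within them the LEC-like types went opposite ways. Lyve1-low LEC-like cells had 58 UMIs in control and 71 in Flcn iΔEC, or 67.8 and 13.4 CPM, a ratio of 0.198 (0.138 to 0.286), while Lyve1-high LEC-like cells had 9 and 103 UMIs, or 12.6 and 28.9 CPM, a ratio of 2.29 (1.16 to 5.14). The arterial markers given beside Nos3 moved with the ratio in Lyve1-low LEC-like cells, and their part in it was not tested. The ratio in Lyve1-high LEC-like cells turned with types from clusters (log2 -0.95). In these types 45.1% to 88.9% of Edn1 UMIs came from 5 cells. Outside endothelium, epithelial-like cells held 83 CPM of Edn1 in control against 43 CPM in Flcn iΔEC.

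Ednrb, the receptor of endothelin on endothelial cells, was higher in the Flcn iΔEC library in each of the 6 types, as were 8.59% of the 4144 genes with 50 counts in all 6. It was past 2-fold in 4 of the 6, as were 0.869% of genes in 4 or more. Of the 8 members with 50 counts in all 6 types, 0 were lower in all 6 (20.3% of genes) and 0 were past 2-fold lower in 4 or more (0.555%). Prox1-low VEC-like cells held 26.0 CPM (19.8 to 33.6) in control against 95.6 CPM (86.7 to 105) in Flcn iΔEC, 3.67 times as much (2.79 to 4.92). Lyve1-high LEC-like cells held 281 CPM (243 to 323) and 791 CPM (762 to 821), a ratio of 2.82 (2.44 to 3.27), and Lyve1-low LEC-like cells 390 CPM (349 to 434) and 812 CPM (788 to 837), a ratio of 2.08 (1.86 to 2.33). The LEC-like types thus had the highest levels and the Prox1-low VEC-like type the highest ratio. Cxcl12-low AEC-like cells held 43.7 and 71.3 CPM (1.63, 1.19 to 2.27), Cxcl12-high AEC-like cells 69.4 and 142 CPM (2.05, 1.42 to 2.95) and capillary-like cells 107 and 214 CPM (2.0, 1.62 to 2.48). The size of the blood endothelial ratios depended on how cells were named and weighted. With types from clusters the log2 ratio was 2.29 in place of 0.68 in Cxcl12-low AEC-like, 0.92 in place of 1.04 in Cxcl12-high AEC-like and 1.53 in capillary-like cells, and without the 5 cells with most Ednrb UMIs in each library it was 1.16, 0.87 and 0.51 in these 3 types. After thinning, an Ednrb UMI was found in 41.4% of control and 72.3% of Flcn iΔEC Lyve1-low LEC-like cells and in 32.4% and 67.1% of Lyve1-high LEC-like cells (unthinned 76.2% and 99.0%, 83.9% and 94.7%). The share in non-endothelial cells was 0.153% and 0.763% (0.493% and 2.39% unthinned). Non-endothelial cells gave 64 Ednrb UMIs in control and 199 in Flcn iΔEC, a ratio of CPM of 4.82 (3.62 to 6.49). B cell-like cells gave 4 and 27 UMIs (10.0, 3.49 to 39.4). In T cell-like and in NK and ILC-like cells the interval included 1. An Ednrb difference was therefore also present outside endothelium, at low counts, and its part in the endothelial ratios was not tested. Ednrb was also the member with the strongest lymphatic bias in both libraries, 5.92 times (5.16 to 6.81) the blood endothelial level in control and 7.83 times (7.30 to 8.40) in Flcn iΔEC. The summed level of 7 lymphatic markers was 180 and 491 CPM in capillary-like and 107 and 164 CPM in Prox1-low VEC-like cells. It was also higher in Flcn iΔEC Cxcl12-high AEC-like (32.5 and 59.7 CPM) and Lyve1-low LEC-like cells (2227 and 5283 CPM). In Cxcl12-low AEC-like (108 and 65.7 CPM) and Lyve1-high LEC-like cells (14457 and 11554 CPM) it was lower. In the median cell the list stood at 0 and 106 CPM in capillary-like and 61.3 and 101 CPM in Prox1-low VEC-like cells. The median Lyve1-low LEC-like cell held 2253 and 2913 CPM and the median Lyve1-high LEC-like cell 14519 and 8320 CPM of it. The median was 0 and 0 CPM in Cxcl12-high AEC-like and 0 and 29.4 CPM in Cxcl12-low AEC-like cells. The part of this list in the Ednrb ratios was not tested. Ece1, the protease that activates endothelin, differed less, at 332 and 355 CPM in Prox1-low VEC-like and 367 and 296 CPM in LEC-like cells.

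Adm was sparse in endothelium, with 274 UMIs in 411 control cells and 88 in 725 Flcn iΔEC cells, or 35.9 and 4.35 CPM. Lyve1-low LEC-like cells gave 107 UMIs (125 CPM, 102 to 151) in control and 11 UMIs (2.08 CPM, 1.04 to 3.73) in Flcn iΔEC, a ratio of 0.0167 (0.00807 to 0.0310). Of the 107 control UMIs, 74 came from 1 cell, and without the 5 cells with most Adm UMIs in each library the log2 ratio was -3.95 in place of -5.80. Lyve1-high LEC-like cells, in which no cell held more than 4 UMIs, gave 24 UMIs (33.7 CPM) in control against 12 (3.37 CPM) in Flcn iΔEC, a ratio of 0.0999 (0.0455 to 0.208). An Adm UMI was seen in 35.5% of the former and 7.02% of the latter (9.24% and 0.698% thinned). In T cell-like cells, taken as background, the share was 2.44% and 2.46% (0.624% and 0.791% thinned), so the thinned share in Flcn iΔEC Lyve1-high LEC-like cells lay at background. Cxcl12-low AEC-like cells gave 41 and 22 UMIs, a ratio of 0.208 (0.118 to 0.357), with 25 of the control UMIs in 1 cell. Without the 5 cells with most Adm UMIs in each library the log2 ratio there was -0.13 in place of -2.24, and with types from clusters it was -0.30. In capillary-like cells, 33.9 and 24.5 CPM did not differ beyond counting error (0.722, 0.421 to 1.20). B cell-like cells, not endothelium, gave most Adm UMIs of the libraries, 61.5% in control and 58.6% in Flcn iΔEC, at 38.1 and 36.2 CPM.

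Calcrl, the receptor that Adm and CGRP share, was a venous transcript. Prox1-low VEC-like cells held 943 CPM (903 to 984) in control against 392 CPM (373 to 411) in Flcn iΔEC, a ratio of 0.416 (0.390 to 0.443), and the median cell held 905 and 353 CPM. All other control types lay between 94.1 and 145 CPM. Their ratios were 0.763 (0.630 to 0.927) in Cxcl12-low AEC-like cells and between 0.781 and 1.06 in the other 4, each with an interval that included 1. Arterial over venous ratios of Calcrl were thus 0.138 (0.121 to 0.157) in control and 0.276 (0.245 to 0.309) in Flcn iΔEC. Ackr3, which binds and clears adrenomedullin and CXCL12, was likewise high in control Prox1-low VEC-like cells, at 881 CPM, and stood at 226 CPM in Flcn iΔEC (0.256, 0.237 to 0.277). In these cells the venous marker list of the median cell was 4087 CPM in control against 2274 CPM in Flcn iΔEC, and the part of this in the Calcrl ratio was not tested.

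Ramp2, which carries CALCRL to the membrane as the adrenomedullin receptor, was found in at least 95.5% of the cells of each of the 6 types (81.6% to 96.1% thinned), against 3.35% and 6.56% of non-endothelial cells (0.874% and 1.66% thinned). It was highest in control Cxcl12-low AEC-like cells, with 2121 CPM (2036 to 2208) against 1369 CPM (1327 to 1412) in Flcn iΔEC, a ratio of 0.646 (0.613 to 0.680), and stood at 1557 and 1128 CPM in Prox1-low VEC-like cells (0.725, 0.694 to 0.757). LEC-like cells leaned the other way, with 1168 and 1321 CPM in the Lyve1-low type (1.13, 1.06 to 1.21) and 1136 and 1225 CPM in the Lyve1-high type. Within endothelium, Ramp3, the alternative partner, stood highest in capillary-like cells at this depth. Capillary-like cells gave 58 UMIs (38.6 CPM) in control against 42 (44.7 CPM) in Flcn iΔEC, a ratio of 1.16 (0.760 to 1.75), which was 17.2 times (6.96 to 54.9) and 65.5 times (20.9 to 330) the level of Prox1-low VEC-like cells. In the other endothelial types compared it had at most 19 UMIs a type, and 0 in control Lyve1-high LEC-like cells, which allows up to 4.21 CPM (3 counts). Non-endothelial cells gave 57.8% of all Ramp3 UMIs in control and 47.0% in Flcn iΔEC. NK and ILC-like cells held 13.6 CPM of Ramp3 in control against 28.7 CPM in Flcn iΔEC (2.11, 1.41 to 3.19).

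**Figure D4:**
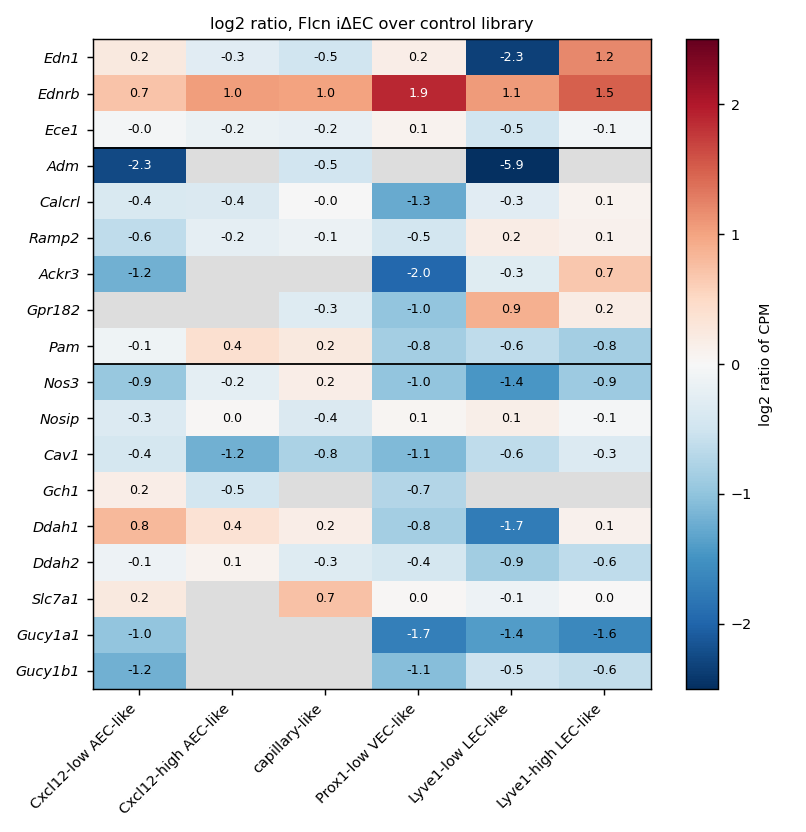
log2 ratio of CPM (Flcn iΔEC over control, no count added) in 6 types for genes of the endothelin (top), adrenomedullin and CGRP (middle) and nitric oxide (bottom) lists with at least 50 counts in 3 or more types; grey cells had under 50 counts and colour stops at 2.5. Ednrb is positive in all 6 types, and Calcrl and Ackr3 are negative in Prox1-low VEC-like cells.

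Ratios between types were taken within each library, and calls past 2-fold in both libraries needed 50 counts in each. LEC-like over blood endothelial ratios were past 2-fold in both libraries for Ednrb upwards (4.04% of all genes) and for Edn1, Calcrl and Ramp3 downwards (7.13%). Klf2 stood at 0.796 (0.759 to 0.834) in control and 1.56 (1.52 to 1.6) in Flcn iΔEC, on opposite sides of 1, and Ramp2 at 0.781 (0.742 to 0.822) and 1.09 (1.06 to 1.12). Klf4 was above 1 in both, at 1.34 (1.26 to 1.42) and 1.75 (1.69 to 1.81). AEC-like over Prox1-low VEC-like ratios were past 2-fold in both downwards for Calcrl (2.59%) and upwards for no member tested (2.86%). Ramp3 and Adm were under the count minimum, Adm with log2 ratios of 1.99 in control and 1.52 in Flcn iΔEC. Klf2 (1.67 and 1.45) and Klf4 (1.33 and 1.40) were higher in AEC-like cells in both libraries, and Piezo1 (0.549 and 0.654) and Edn1 (0.697 and 0.830) in Prox1-low VEC-like cells, each with an interval that left out 1. Capillary-like over Prox1-low VEC-like ratios were past 2-fold in both upwards for Ednrb (2.78% of all genes) and downwards for Edn1 and Calcrl (4.21%). Ramp3 and Adm were under the count minimum in this comparison. Within AEC-like cells (2.74% of genes past 2-fold higher and 2.7% lower in the Cxcl12-low type) and within LEC-like cells (0.737% and 0.677% for the Lyve1-low type), 0 members passed 2-fold in both libraries.

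Prox1-high VEC-like cells, which carry venous markers together with the lymphatic regulator Prox1, could be described in the Flcn iΔEC library, with 46 cells. They held 347 CPM (318 to 377) of Ednrb, 3.63 times (3.19 to 4.13) the level of Prox1-low VEC-like cells in the same library, where 1.75% of genes were past 2-fold higher and 3.94% lower. They held 871 CPM of Klf4 (1.80 times, 1.68 to 1.93) and 140 CPM of Nos3 (1.40 times, 1.18 to 1.65). Klf2, at 814 CPM, was 0.920 times (0.863 to 0.981) and Calcrl, at 312 CPM, 0.797 times (0.719 to 0.882) the Prox1-low level. Ednrb thus lay between the venous and LEC-like levels, while Edn1, at 274 CPM, stayed near the venous one (0.717 times, 0.643 to 0.798). Adm had 0 UMIs in these cells, which allows up to 1.96 CPM. In control, 1 of the 3 cells held 27 Adm UMIs. Of the 11298 erythroid UMIs in the Flcn iΔEC cells, 99.6% were in 3 cells.

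**Figure D5:**
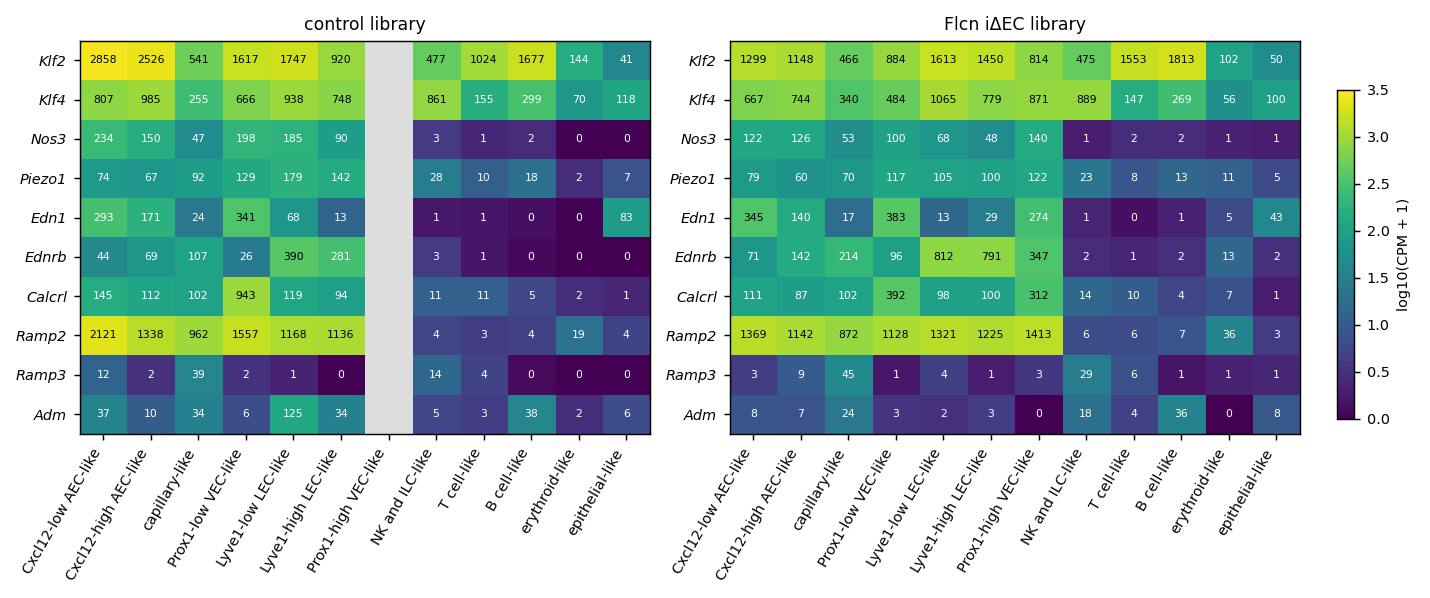
CPM of each gene (numbers; colour is log10 of CPM + 1) in endothelial and non-endothelial types of the control (left) and Flcn iΔEC (right) library; the control Prox1-high VEC-like column is grey because it held 3 cells. Nos3, Ednrb, Calcrl and Ramp2 are near 0 outside endothelium, whereas Klf2 and Klf4 are not.

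Outside endothelium, Klf2, which keeps T cells quiescent and circulating, was abundant in lymphocytes. B cell-like cells held 1677 and 1813 CPM, and T cell-like cells 1024 CPM (1010 to 1037) in control against 1553 CPM (1528 to 1578) in Flcn iΔEC, 1.52 times as much (1.49 to 1.55). A Klf2 difference between the libraries was therefore also present in cells without Cdh5 UMIs. Klf4 was high in NK and ILC-like cells (861 and 889 CPM) and lower in B cell-like (299 and 269) and T cell-like cells (155 and 147). Endothelial over non-endothelial ratios were past 2-fold upwards in both libraries for 7 of the 10 genes (24.2% of all genes), and downwards for 0 (12.9%). The 7 were Klf4, Nos3, Piezo1, Edn1, Ednrb, Calcrl and Ramp2. They ran from 2.53 and 2.91 for Klf4 to 246 and 117 for Ramp2.

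The 10 genes belong to 6 lists of genes from the same pathways, 77 genes in all. In LEC-like cells 59 passed the count minimum, of which 5 (8.47%) were past 2-fold higher and 9 (15.3%) lower in Flcn iΔEC, against 3.63% and 7.03% of all genes. In Prox1-low VEC-like cells 57 passed, with 7 (12.3%) higher and 9 (15.8%) lower, against 2.89% and 4.44% of all genes. Higher in both were Ednrb, Angpt2, a TIE2 ligand (54.2 and 257 CPM in LEC-like cells), Nqo1, an antioxidant enzyme (70.1 and 164 CPM), and P2rx4, an ATP-gated channel that senses flow (20.4 and 61.4 CPM). Lower in both were Thbd, the anticoagulant thrombomodulin and a KLF2 target (91.8 and 29.5 CPM in LEC-like, 81.7 and 39.6 CPM in Prox1-low VEC-like cells), Ptgs1, a cyclooxygenase (19.1 and 2.26 CPM in LEC-like cells), and Gucy1a1, a subunit of the nitric oxide receptor (35.1 and 12.3 CPM). In the list of 11 genes of the ERK5, MEF2 and CCM branch upstream of Klf2 and Klf4, all were tested in both groups of cells and 0 passed 2-fold in either direction. In Cxcl12-low AEC-like cells 0 of 11 did, against 2.28% of all genes higher and 3.2% lower. In Cxcl12-high AEC-like cells 1 of 8 tested, Ccm2, was lower (42 and 9 UMIs, 45.6 and 20.7 CPM), against 4.77% of all genes. None was higher there (2.37%). Over all endothelial cells 1 of 11, Mef2c, was past 2-fold lower (6.44% of all genes). With 8 to 11 genes, counts of 0 or 1 cannot be told from these shares. Mef2c stood at 266 and 168 CPM in Prox1-low VEC-like and 154 and 92 CPM in LEC-like cells. In the nitric oxide list Gch1 was higher and Nos3, Ddah1 and Gucy1a1 lower in LEC-like cells among 10 tested (3.63% and 7.03% of all genes). Cav1, Gucy1a1 and Gucy1b1 were lower in Prox1-low VEC-like cells among 10 (4.44% of all genes). Pam, which amidates adrenomedullin, stood at 391 and 217 CPM in Prox1-low VEC-like cells and 224 and 135 CPM in LEC-like cells.

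Over the 12 points given by 6 types and 2 libraries, which share depth and library, the genes most like each member were found by Pearson's r of log2(CPM + 1) among 2851 genes. They were Pdlim7 for Klf2 (0.893), Ehd1 for Klf4 (0.939), Ghr for Nos3 (0.903), Ttyh3 for Piezo1 (0.966), Palld for Edn1 (0.973), Pdcd5 for Ednrb (0.964), Oat for Calcrl (0.969), Lman1 for Ramp2 (0.869), Exoc5 for Ramp3 (0.840) and Luc7l3 for Adm (0.856). Lox and Mgp followed for Edn1 (0.957 and 0.949), Nrg1 and Adamts18 for Calcrl (0.914 and 0.902), and Rgcc and Esm1 for Ramp3 (0.829 and 0.818). Rgcc is also a marker by which capillary-like cells were named, so its likeness to Ramp3 is partly set by the naming. Of all these genes, only Pdlim7, Ehd1, Ttyh3, Pdcd5, Mgp and Esm1 were also among the top 3 of their member by Spearman's correlation. Among the members themselves, Klf2 was nearest to Ramp2 (0.852) and Klf4 (0.850), and Edn1 ran opposite to Ednrb (-0.77).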

How the data were processed

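CD31+ mesenteric cells of 1 control and 1 Flcn iΔEC library were analysed. The authors deposited raw UMI counts per gene and cell, made with Cell Ranger 3.0 on mm10 per the submitters' processing notes (3.0.1 in the file headers), with low-quality reads and PCR duplicates removed. No other normalization had been applied. Gene positions came from the GRCm38 annotation, which held 28416 of the 28692 gene IDs. The members, gene lists and type cut-offs were chosen with earlier results of these data known.

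Each cell with at least 2 Cdh5 UMIs was scored on arterial, capillary, venous and lymphatic markers, each gene scaled to its 95th percentile, and split at 3 UMIs per 10000 for Cxcl12 and Prox1 and at 2 for Lyve1. Cells with 3 or more UMIs of 24 blood cell markers per 10000 were set aside. Cells without Cdh5 UMIs took the highest of the blood, stromal and epithelial marker scores. Scrublet marked 142 control and 37 Flcn iΔEC cells as doublets, of which 7 and 3 lay in the cells set aside and none in a named endothelial type. No cell was removed for depth. UMIs were summed per library and type, with exact Poisson intervals for CPM, exact conditional intervals for ratios and Clopper-Pearson intervals for shares. Ratios are given as measured, whereas log2 ratios and 2-fold calls have 1 count added to each side. Calls between libraries needed 50 counts over both libraries, and calls between types 50 counts in each library. Shares were compared after thinning each cell to 2000 UMIs. A count of 0 was taken to allow 3 counts. No p-value was computed, and scripts were tested on simulated counts.

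The text names the 10 members in each type, and list genes past 2-fold in the same direction in LEC-like and Prox1-low VEC-like cells or with at least 100 CPM in a type. It also names the gene most like each member, and those ranked next for Edn1, Calcrl and Ramp3. Gucy1a1 and Gucy1b1 are listed in the files under older symbols. Alternatives covered the Cdh5 cut-off, clusters in place of scores, cell filters, doublets, proliferating cells, the CPM total, the mean over cells, the weight of types, the count minimum, the pseudocount and Spearman's correlation. Leaving out the 5 cells with most UMIs of a gene, and keeping cells with blood cell markers, were added after the data were seen. Python 3.11.15, scanpy 1.11.5, scipy 1.17.1 and pandas 2.3.3 were used.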

Additional observations from a re-analysis of the deposited data

Results flagged for a closer look

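Klf2 and Edn1 stood out because their ratio between the libraries lay on opposite sides of 1 in different endothelial types, with intervals that left out 1. Klf2 in the Flcn iΔEC library was 1.58 times (1.45 to 1.71) its control level in Lyve1-high LEC-like cells, and 0.455 times in Cxcl12-low AEC-like, 0.455 times in Cxcl12-high AEC-like and 0.547 times in Prox1-low VEC-like cells. For Edn1 the ratio was 2.29 (1.16 to 5.14) in Lyve1-high LEC-like cells and 0.198 (0.138 to 0.286) in Lyve1-low LEC-like cells, the former on 9 control UMIs. With 1 library per genotype, the difference between types was not tested for either gene.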

How the results depend on the processing

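No paired analysis was possible because each genotype had 1 library, and for the same reason no library could be left out. Intervals cover counting error only, so the spread between mice is unknown, and sex and genotype cannot be told apart. Among the endothelial types, depth limited Ramp3 outside capillary-like cells and Adm in most. Of the 60 pairs of gene and type, 46 kept the direction of their ratio under every alternative and 14 did not. In 11 of the 14 the interval of the ratio as reported included 1.

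Over all endothelial cells, the log2 ratios of Flcn iΔEC over control as reported were Klf2 -0.41, Klf4 0.15, Nos3 -0.86, Piezo1 -0.17, Edn1 -0.09, Ednrb 1.89, Calcrl -0.99, Ramp2 -0.18, Ramp3 -1.22 and Adm -3.03. They pool types whose shares differ between the libraries. With equal weight for the 6 types they were Klf2 -0.57, Klf4 -0.11 (turned), Piezo1 -0.37, Edn1 0.027 (turned), Ednrb 1.21, Calcrl -0.77, Ramp2 -0.23, Ramp3 0.13 (turned) and Adm -2.38. With blood-marker cells kept they were Klf2 -0.21, Klf4 0.24, Nos3 -0.61, Piezo1 0.028 (turned), Edn1 0.0004 (turned), Ednrb 2.16, Calcrl -0.89, Ramp2 0.0295 (turned), Ramp3 -0.35 and Adm -1.86. As the mean over cells they were Klf2 -0.34, Edn1 0.045 (turned), Calcrl -0.82 and Ramp3 -1.71. Types from clusters gave Klf2 -0.34, Klf4 0.20 and Edn1 -0.19. Without hemoglobin, mitochondrial and ribosomal protein genes in the CPM total they were Klf2 -0.36, Klf4 0.20 and Ramp2 -0.12. Leaving out proliferating cells gave Edn1 -0.21, Calcrl -1.06 and Ramp2 -0.21. Leaving out the 5 cells with most UMIs gave Klf2 -0.36, Ednrb 2.07, Calcrl -0.90 and Adm -2.56. Among the 3 pairs whose interval left out 1, clusters turned Klf2 in Lyve1-low LEC-like (0.18), Edn1 in Lyve1-high LEC-like (-0.95) and Ramp3 in Cxcl12-low AEC-like cells (0.065), and leaving out the 5 top cells turned Klf2 in Lyve1-low LEC-like cells (0.16). Of the 12 pairs past 2-fold, 4 were lost under at least 1 alternative, and Adm in Cxcl12-low AEC-like cells moved from -2.24 to -0.13 without the 5 top cells. Where the alternative did not itself change the weights of types or cells, the cause was not tested.

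For LEC-like over blood endothelial cells, the pooled log2 ratio and that of the control and Flcn iΔEC library alone were 0.24, -0.33 and 0.64 for Klf2, 0.69, 0.42 and 0.81 for Klf4, -3.59, -2.36 and -4.01 for Edn1, 3.12, 2.56 and 2.97 for Ednrb, -1.70, -2.01 and -1.35 for Calcrl, -0.04, -0.36 and 0.12 for Ramp2, -2.05, -3.44 and -1.39 for Ramp3 and 0.30, 2.08 and -1.35 for Adm. In control alone they were -0.15 for Nos3 and 0.72 for Piezo1, against -0.80 and 0.20 pooled. For AEC-like over Prox1-low VEC-like cells they were 0.69, 0.74 and 0.53 for Klf2, -0.02, 1.08 and -0.24 for Ednrb and -2.31, -2.85 and -1.86 for Calcrl, and in control alone -0.014 for Nos3, -0.52 for Edn1 and 0.18 for Ramp2, against 0.18, -0.36 and 0.24 pooled. Counts of pathway genes past 2-fold stayed within 1.5 times of those reported at count minimums of 20 and 100.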
